A study of Danio rerio with 10 samples.

Results

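The genes described here, called Notch pathway genes, carry names of the families of that pathway: 4 receptors, 9 ligands of the Delta and Jagged types, 2 mind bomb ubiquitin ligases, 3 fringe glycosyltransferases, 5 nuclear partners, 2 numb adaptors and 24 her, hes and hey genes. A name does not show that Notch controls a gene, and not every her, hes or hey gene need be a target. The genes were chosen by patterns of the gene name for these families, a rule that used no measured value, although the choice of the pathway was made with earlier results of these data known. They make up 49 of the 25911 genes in the count table, and 46 of them passed edgeR's filter on low counts. The her gene her1 was not analysed here. RNA was measured in whole larvae of the AB strain background at 3 days post fertilization (dpf). The larvae came from an incross of fish heterozygous for can4, a loss-of-function mutation of top2a, so that can4-/- mutants and wild-type (WT) larvae had parents of the same genotype, and the larvae were genotyped one by one before pooling. There were 5 pools of 9 larvae for each genotype. Homozygous mutants die, and maternal top2a mRNA can last into the first days of their development, which limits them as a model of full loss. The authors also warn that these mutants have defects of form and may lose neurons, which could skew the RNA values.

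Notch is a signal between touching cells. A Delta or Jagged ligand on a cell, made active by a mind bomb ligase, pulls on a Notch receptor of its neighbor, the receptor is cut by an ADAM protease and by γ-secretase, and its inner part enters the nucleus, where it joins Rbpj and a Mastermind protein and switches on her and hey genes. These encode repressors that hold back proneural genes, so that in the developing brain a ligand-bearing new neuron keeps its neighbors in the progenitor state. The same pathway acts in somite formation, in blood vessels and in the inner ear.

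The libraries held 29281449 to 45544046 counts per WT pool and 30098991 to 38106622 per mutant pool. Normalized counts are raw counts scaled to the average library by TMM factors, and a log2 fold change is the mutant value against WT. Calls rest on edgeR's quasi-likelihood test of 23039 genes, with an adjusted p (Benjamini-Hochberg, all genes) under 0.05, and every adjusted p and standard error (SE) comes from it unless another test is named. The transcript of top2a itself was at 9082, 8498, 8646, 8532 and 8498 normalized counts in WT pools 1 to 5 and at 675, 1358, 656, 635 and 688 in mutant pools 1 to 5. The mutant mean was 9.27% of the WT mean. Mutant pool 2 held more top2a RNA than the other mutant pools, and whether all of its larvae were can4-/- cannot be told from these counts. Without it the mutant mean of top2a was 7.67% of the WT mean, and other values without it are given where it matters. Mitochondrial genes took 3.86 to 4.43% of the counts in WT and 3.93 to 4.60% in mutants.

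Most Notch pathway genes were down-regulated in can4-/- larvae. Of the 46 tested, 33 (71.7%) were lower, 5 were higher and 8 did not pass, where 36.9% of all genes were called lower and 36.3% higher. The median log2 fold change was -0.80 for the 46 and 0.0027 for all genes tested. A decrease of at least 2-fold was found in 18 of them, against 11.9% of all genes, and 16 of these 18 are her, hes or hey genes. The pools of the genotypes did not overlap for 35 of the 46, against 60.8% of all genes. Scaling by library totals in place of TMM shifted all log2 fold changes by a median of -0.17 and gave 38 Notch genes lower and 3 higher, where 47.7% of all genes were then called lower and 25.7% higher. Without mutant pool 2 the count was 33 lower and 6 higher, where 8488 of all 23219 genes then tested were lower and 8313 higher. In RNA of whole larvae, fewer cells of a type and less RNA per cell cannot be told apart.

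**Figure D1:**
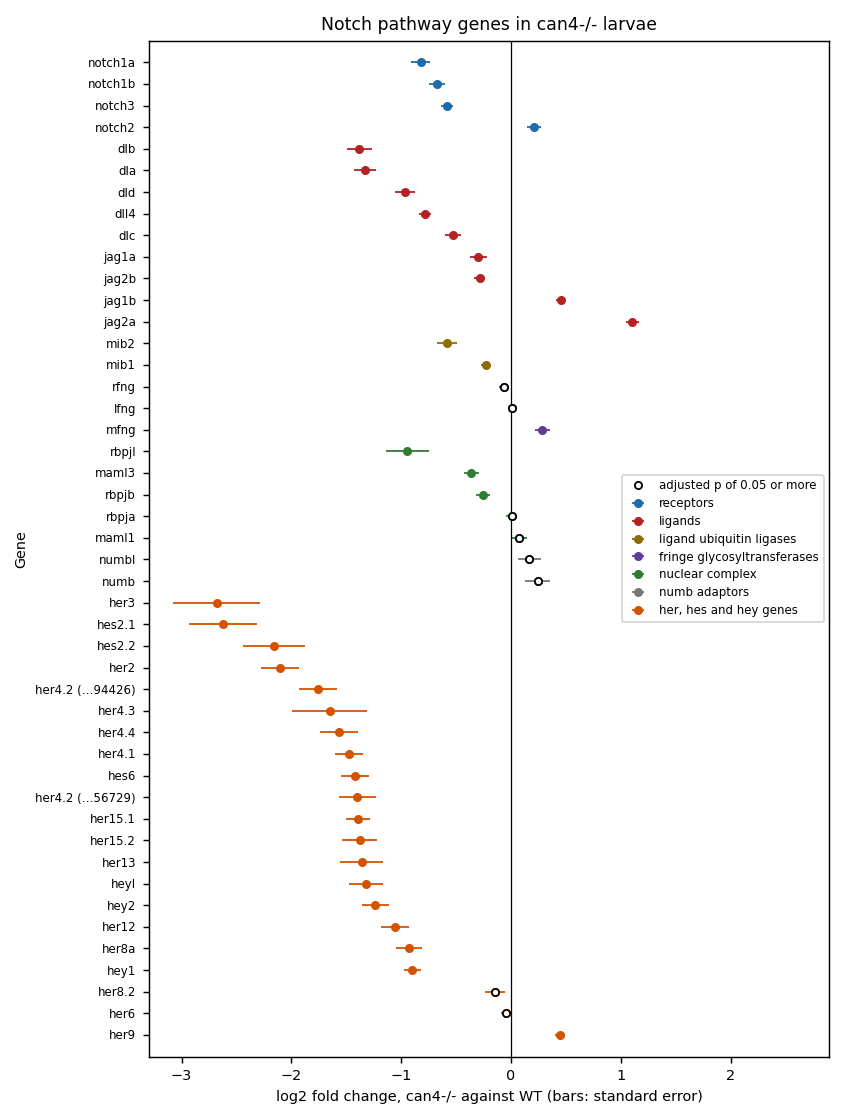
Log2 fold change of each of the 46 tested Notch pathway genes in can4-/- larvae against WT (x axis), with its standard error as a bar and colors for the role of the gene. Open circles are genes at an adjusted p of 0.05 or more. The her, hes and hey genes reach -2.68, while jag2a stands alone on the right at 1.11.

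Among the receptors, the transcripts of notch1a, notch1b and notch3 were lower in can4-/- larvae and that of notch2 was higher. These genes encode the single-pass membrane proteins that receive the signal. The normalized count of notch1a (chr21:4766244-4849056 in GRCz11) was 1226, 1106, 1038, 1036 and 1139 in WT pools 1 to 5 and 611, 692, 732, 587 and 506 in mutant pools 1 to 5. Every mutant pool lay below every WT pool, with a log2 difference of -0.82 ± 0.0867 (SE, adjusted p = 1.06e-06) with edgeR. For notch1b, its paralog on chromosome 5 (chr5:65679595-65782785), the WT pools stood at 2274, 2148, 2142, 2098 and 2049.8 and the mutant pools at 1165, 1567, 1429, 1337 and 1195. The groups did not overlap, and the log2 fold change was -0.68 ± 0.0717 (SE, adjusted p = 1.12e-06) from edgeR. The transcript of notch3 (chr3:53526025-53559581), a receptor of neural progenitors and of the mural cells around vessels, was counted 3815, 3736, 3670.5, 3308 and 3553 times in WT pools and 2404, 2555, 2605, 2404 and 2110.4 times in mutant pools after normalization. Its groups did not overlap either, at -0.58 ± 0.0579 (SE, adjusted p = 5.89e-07) from edgeR.

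The fourth receptor went the other way. In WT pools 1 to 5 notch2 (chr8:19548985-19619792) had 3375, 3083, 2914, 2886 and 3236 normalized counts, and in mutant pools 1 to 5 it had 3701, 3222, 4054, 3666 and 3296. Mutant pools 2 and 5 lay within the WT range, and the increase was small, at an edgeR log2 estimate of 0.21 ± 0.0654 (SE, adjusted p = 0.00988). It was 0.036 with library totals, where it did not pass (adjusted p = 0.605 from edgeR).

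All 5 Delta ligand genes were lower in can4-/- larvae, and the 4 Jagged genes split, with 2 higher and 2 lower. The median log2 fold change was -0.96 for the Delta genes and 0.082 for the Jagged genes. In neurogenic tissue the Delta genes dla, dlb and dld are transcribed in cells that are about to become neurons. The largest decrease among them was that of dlb (chr5:36693859-36701760), with 1421, 1311, 1369, 1236 and 1209 normalized counts in WT pools 1 to 5 and 420.0, 674, 456, 552 and 403 in mutant pools 1 to 5. Mutant pool 2 was the highest of its group and still lay well under the lowest WT pool, and the log2 fold change was -1.38 ± 0.116 (SE, adjusted p = 1.10e-07) from edgeR.

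The values of dla (chr1:54013457-54026352) were 1827, 1836, 1979, 1815 and 1732 in WT pools and 607, 967, 639, 755 and 673 in mutant pools. Its mutant mean was 39.6% of the WT mean, a log2 fold change of -1.33 ± 0.102 (SE, adjusted p = 4.10e-08) from edgeR, and the gene overlaps a gene model on the opposite strand, with which it may share reads. For dld (chr13:6075572-6081803) the pools held 1033, 949.9, 1069, 957 and 955 normalized counts in WT and 385, 609, 502, 525 and 519 in mutants. Again no mutant pool reached a WT pool, and again mutant pool 2 was the highest mutant, with a log2 fold change of -0.96 ± 0.0911 (SE, adjusted p = 3.56e-07).

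Delta genes are also known outside the nervous system, among them dlc in the segmenting mesoderm and dll4 in the tip cells of growing vessels. Normalized counts of dll4 (chr20:28245164-28257992) were 855, 908, 915, 954 and 901 in WT pools 1 to 5 and 489.9, 583, 522, 499 and 532 in mutant pools 1 to 5. The spread within each genotype was small beside the gap between them, and the log2 fold change was -0.79 ± 0.0547 (SE, adjusted p = 1.60e-08) from edgeR. The smallest change of a Delta gene was that of dlc (chr15:20463448-20468302), at 1893, 1855, 1932, 1901 and 1712 in WT pools and 1225, 1484, 1289, 1369 and 1059 in mutant pools, with no overlap and a log2 difference of -0.53 ± 0.0739 (SE, adjusted p = 1.70e-05) with edgeR. Without mutant pool 2 the log2 fold changes of the Delta genes were -1.51 for dlb, -1.46 for dla, -1.04 for dld, -0.83 for dll4 and -0.59 for dlc.

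Of the Jagged genes, jag2a (chr13:33488032-33551699) showed the largest increase of any Notch pathway gene. It had 399, 369.8, 384, 362 and 394 normalized counts in WT pools 1 to 5 and 894, 729, 799, 845 and 848 in mutant pools 1 to 5. All mutant pools lay above all WT pools, mutant pool 2 was the lowest mutant, and the mutant mean was 216% of the WT mean, at an edgeR log2 estimate of 1.11 ± 0.0604 (SE, adjusted p = 1.60e-09). The transcript of jag1b (chr13:35339182-35390095), a ligand gene of the craniofacial skeleton, rose as well, from 2249.7, 2342, 2161, 2261 and 2332 in WT pools to 3176, 3089, 3278, 3040.4 and 2929 in mutant pools. Its groups did not overlap, and the log2 fold change was 0.45 ± 0.0408 (SE, adjusted p = 2.20e-07) from edgeR. An annotated noncoding RNA lies within jag1b on the opposite strand.

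Their respective paralogs fell by small amounts. The counts of jag1a (chr1:51104984-51157660) were 392, 342, 361, 367 and 314 in WT pools and 297, 318, 297, 270.2 and 262 in mutant pools. WT pool 5 and mutant pool 2 overlapped, and the log2 fold change was -0.30 ± 0.0766 (SE, adjusted p = 0.00299) from edgeR. For jag2b (chr20:21391181-21475620) the values were 1882, 1709, 1701, 1609.9 and 1645 in WT pools and 1359, 1432, 1454, 1442 and 1322 in mutant pools, with no overlap and a log2 fold change of -0.29 ± 0.049 (SE, adjusted p = 0.000117) from edgeR.

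**Figure D2:**
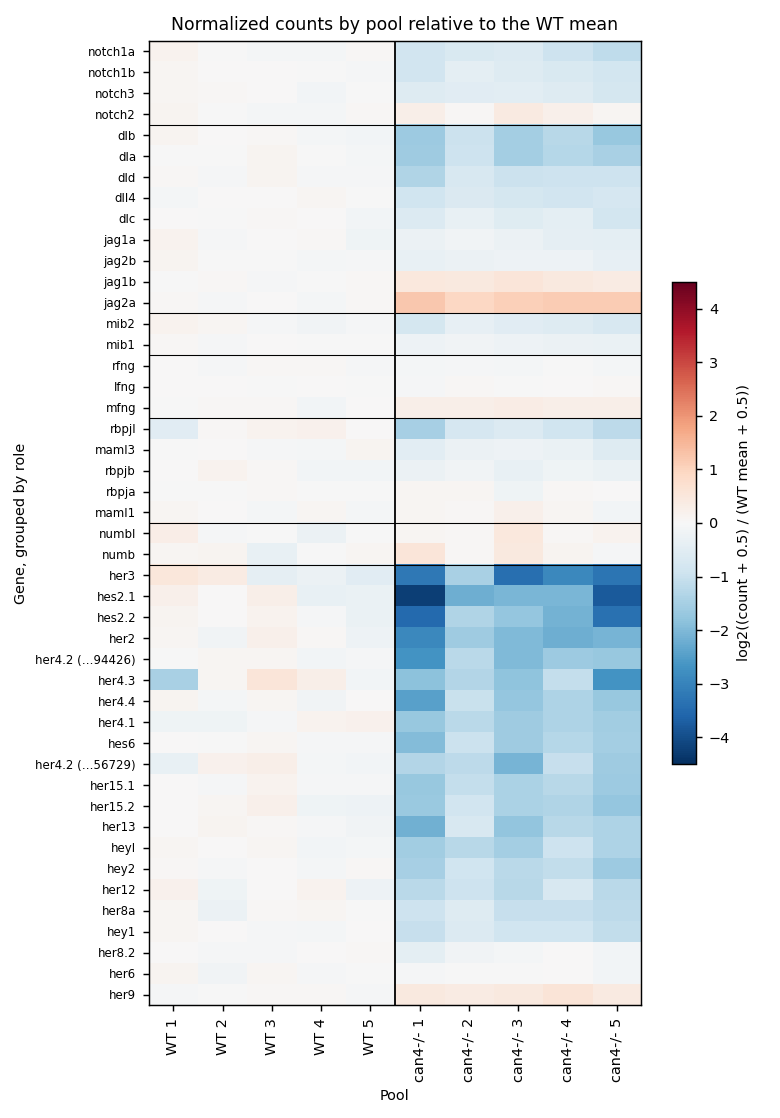
Normalized counts of the 46 tested genes in each of the 10 pools (columns), as log2 of the count over the WT mean of the gene with 0.5 added to both, with blue for lower and red for higher. Rows are grouped by role, and mutant pool 2 is paler than the other mutant pools in many of the blue rows: it was the highest mutant pool in 23 of the 33 genes that were lower.

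Both mind bomb genes, whose products add ubiquitin to the ligands so that these can be pulled in, were lower: mib2 by a log2 fold change of -0.58 ± 0.09 (SE) and mib1 by -0.23 ± 0.0399 (SE), each with no overlap of the pools. A pair of microRNA genes lies within mib1 on the opposite strand. The more abundant mib1 averaged 3404 ± 97.1 in WT and 2902 ± 124 in mutants (SD, n = 5). The fringe genes encode sugar transferases that modify the receptors and set which ligand type they answer to. Of these, lfng (0.0084) and rfng (-0.066) did not pass. The third, mfng (chr22:15251527-15280638), was at 171, 177, 181, 160.0 and 174 normalized counts in WT pools 1 to 5 and 206, 209, 220.4, 209 and 209.6 in mutant pools 1 to 5. The groups did not overlap, with a log2 difference of 0.29 ± 0.0705 (SE, adjusted p = 0.00225) with edgeR, but with library totals its value was 0.11 and did not pass (adjusted p = 0.178 from edgeR), and lfng and rfng passed as lower at -0.17 and -0.24.

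The nuclear partners were lower or did not pass. The DNA-binding protein of the pathway is made from rbpja and rbpjb. With means of 1876 ± 40.9 in WT and 1888 ± 140.3 in mutants (SD, n = 5), rbpja did not pass at 0.0082, and it turned to -0.17 with library totals, where it passed as lower. Small decreases were those of rbpjb, at -0.26 ± 0.0615 (SE), and of the Mastermind coactivator gene maml3, at -0.36 ± 0.0661 (SE), both with no overlap of the pools. The other Mastermind gene, maml1, was at 0.071 and did not pass. The gene rbpjl, whose mammalian counterpart works in the acinar cells of the exocrine pancreas rather than in Notch signaling, was at -0.95 ± 0.195 (SE) with means of only 54.1 ± 9.42 in WT and 27.7 ± 6.62 in mutants (SD, n = 5), and it overlaps matn4 on the opposite strand, with which it may share reads. The numb genes encode adaptors that restrain Notch in the cell that inherits them, and neither passed: numb was at 0.24 (adjusted p = 0.0709 from edgeR) and numbl at 0.17. Without mutant pool 2 numb stood at 0.29 and passed, as it did without mutant pool 5, and numbl passed without WT pool 1.

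The her, hes and hey genes held the largest decreases. Of 24 such genes 21 were tested, and 18 were lower, 1 (her9) was higher and 2 (her6 and her8.2) did not pass. The median log2 fold change of the 21 was -1.40, and 16 were lower by at least 2-fold, against 11.9% of all genes. Among these 16 the 5 her4 copies and the similar her15.1 and her15.2, which may share reads, are each counted as a gene. The 3 untested genes are her5, her7 and her11, with 0 to 10 reads per pool. In zebrafish her7 is part of the somite clock, and her5 and her11 mark the border between midbrain and hindbrain.

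**Figure D3:**
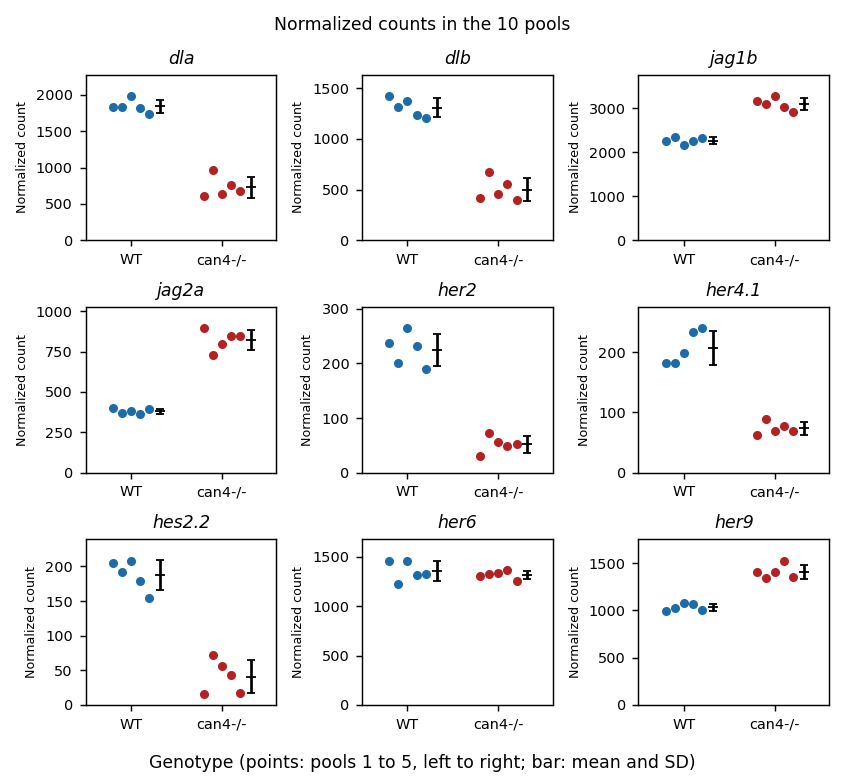
Normalized counts of 9 Notch pathway genes in WT (blue) and can4-/- (red) pools 1 to 5, from left to right within a genotype, with mean and SD as a bar and every axis starting at 0. The groups are apart for dla, dlb, her2, her4.1 and hes2.2 (lower in mutants) and for jag1b, jag2a and her9 (higher), and they overlap for her6.

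The her4 genes, related to mammalian Hes5 and direct targets of Notch in neural progenitors, lie as 5 tandem copies on chromosome 23 between 21452557 and 21471022, and 2 of them carry the symbol her4.2. The copies are alike and may share reads, and the her4.2 gene ENSDARG00000094426 also overlaps her4.3, so a single copy's value is uncertain. This her4.2 gene (chr23:21455152-21461134) had 692, 729.9, 744, 637 and 662 normalized counts in WT pools 1 to 5 and 106, 299, 174, 222 and 213 in mutant pools 1 to 5. It was the most reduced of the copies, with an edgeR log2 estimate of -1.76 ± 0.174 (SE, adjusted p = 5.71e-07) and no overlap of the pools.

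For her4.4 (chr23:21462021-21463788) the WT pools stood at 351, 308, 342, 294 and 329 and the mutant pools at 60.0, 161, 97.8, 123 and 99.5. Mutant pool 1 was the lowest and mutant pool 2 the highest of the mutants, and all lay under the WT pools, giving -1.57 ± 0.175 (SE, adjusted p = 1.90e-06) from edgeR. The gene her4.1 (chr23:21452557-21453614) was at 182, 182, 198, 234 and 239.5 in WT pools and at 62.5, 89.6, 68.8, 78.3 and 69.9 in mutant pools, again with no overlap and -1.48 ± 0.124 (SE, adjusted p = 1.08e-07) from edgeR. The second her4.2 gene (ENSDARG00000056729) was at -1.40 ± 0.17 (SE) with no overlap, and her4.3 at -1.65 ± 0.345 (SE), where WT pool 1 lay within the mutant range. Summed to 1 feature, the copies had 1459, 1602, 1709, 1507 and 1540.4 normalized counts in WT pools and 354, 695, 425, 585 and 478 in mutant pools, which came to -1.62 ± 0.135 (SE, adjusted p = 9.95e-08) with edgeR. The sum does not depend on how counted reads were divided among the copies, but it misses any shared reads that were discarded. It lay in all 5 mutant pools below all WT pools.

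The neighboring her12, on the same 26.1 kb of chromosome 23, was at -1.06 ± 0.126 (SE), and the related genes her2, her15.1 and her15.2, which lie together within 30.8 kb of chromosome 11, were lower too. The counts of her2 (chr11:41966117-41966854) were 237, 201, 264, 233 and 190.0 in WT pools 1 to 5 and 30.0, 73.2, 55.9, 48.2 and 52.1 in mutant pools 1 to 5. The mutant mean was 23.1% of the WT mean, and the log2 fold change was -2.10 ± 0.172 (SE, adjusted p = 8.19e-08) from edgeR. The similar copies her15.1 and her15.2, which may share reads, stood close together at -1.40 ± 0.107 (SE) and -1.38 ± 0.158 (SE).

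The lowest values of all came from her3, hes2.1 and hes2.2, which lie within 285 kb of chromosome 8. Of these, hes2.2 (chr8:46896445-46897734) was the most abundant, with 205, 192, 208, 179 and 154 in WT pools 1 to 5 and 16.2, 72.3, 55.9, 42.9 and 17.8 in mutant pools 1 to 5. Mutant pools 1 and 5 were far under the other mutants, and the log2 fold change was -2.16 ± 0.282 (SE, adjusted p = 9.28e-06) from edgeR. The other 2 were rare transcripts. For hes2.1 the means were 55.5 ± 10.7 in WT and 8.68 ± 5.20 in mutants (SD, n = 5) and the log2 fold change was -2.63 ± 0.309 (SE), and for her3, which Notch represses rather than activates in zebrafish, they were 27.2 ± 9.10 in WT and 3.97 ± 3.19 in mutants (SD, n = 5) with -2.68 ± 0.397 (SE). Without mutant pool 2 the values were -3.35 for her3 and -2.47 for hes2.2. Only 2 other tested genes lie in that stretch, 1 higher and 1 lower.

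The gene hes6, whose mammalian counterpart favors neuronal differentiation, was also lower. It lies at chr2:48288461-48304696, where it overlaps a gene on the opposite strand, and its counts were 551, 534, 571, 521 and 513 in WT pools 1 to 5 and 140.0, 278, 176, 219 and 185 in mutant pools 1 to 5. The groups did not overlap, with a log2 fold change of -1.42 ± 0.131 (SE, adjusted p = 2.72e-07) from edgeR. The gene her13 was at -1.36 ± 0.193 (SE) and the neural gene her8a at -0.93 ± 0.12 (SE), while its relative her8.2 did not pass at -0.15, except with library totals (-0.32).

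The hey genes, a related family that serves heart and vessels, were lower without exception among the 3 measured. The values were -0.90 ± 0.0757 (SE) for hey1, -1.24 ± 0.125 (SE) for hey2 and -1.32 ± 0.156 (SE) for heyl, each with no overlap of the pools. The mean normalized counts of hey1 were 1239 ± 61.6 in WT and 663 ± 86.3 in mutants, and those of hey2, an arterial gene, were 186 ± 8.44 in WT and 78.4 ± 16.0 in mutants (SD, n = 5).

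With TMM scaling the Hes1-type genes her6 and her9 were not among the genes called lower. Pools of her6 (chr6:36551083-36552844) held 1460.4, 1227, 1455, 1319 and 1326 normalized counts in WT and 1305, 1331, 1336, 1365 and 1254 in mutants. The groups overlapped and the log2 fold change was -0.043 ± 0.052 (SE, adjusted p = 0.467) from edgeR. With library totals it was -0.22 and passed as lower. In contrast her9 (chr23:23399520-23401305), which lies on the same chromosome as the her4 genes, was at 994, 1023, 1079, 1064 and 1001 in WT pools 1 to 5 and 1406, 1345, 1411, 1526 and 1351 in mutant pools 1 to 5. All mutant pools lay above all WT pools, and the log2 fold change was 0.45 ± 0.0459 (SE, adjusted p = 8.24e-07) from edgeR (0.27 with library totals).

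Related genes changed by different amounts within the same pools in most of the pairs compared. For 11 pairs the log2 ratio of the 2 normalized counts (0.5 added to each) was compared between genotypes with a two-sided exact permutation test, whose smallest p for 5 pools against 5 is 0.00794. With Benjamini-Hochberg adjustment over the pairs 9 passed, and 8 of these had no overlap between the genotypes. As 73.2% of all genes were called in either direction, ratios of unrelated genes can shift too. How often they do was not tested, so these counts are not a trait of related genes. The scaling of the libraries enters such a ratio only through the 0.5 added. The largest difference was in jag2a over jag2b, whose log2 ratio averaged -2.16 ± 0.0666 over WT pools and -0.77 ± 0.153 over mutant pools (SD, n = 5), a difference of 1.39 (exact permutation test, p = 0.00794, adjusted p = 0.0109). For jag1a over jag1b the difference was -0.75, for her8a over her8.2 -0.78 and for her6 over her9 -0.49 (exact permutation test, p = 0.00794, adjusted p = 0.0109 for each). Smaller shifts at the same p were those of dla over dld (-0.37), hey1 over hey2 (0.35), mib1 over mib2 (0.36) and rbpja over rbpjb (0.26). The pair hes2.1 over hes2.2 passed at -0.44 (exact permutation test, p = 0.0397, adjusted p = 0.0485) with overlapping pools, and it did not pass when any 1 pool was left out, except mutant pool 4. No difference was resolved for notch1a over notch1b (-0.15, exact permutation test, p = 0.0873, adjusted p = 0.096) or numb over numbl (0.062, p = 0.69, adjusted p = 0.69).

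**Figure D4:**
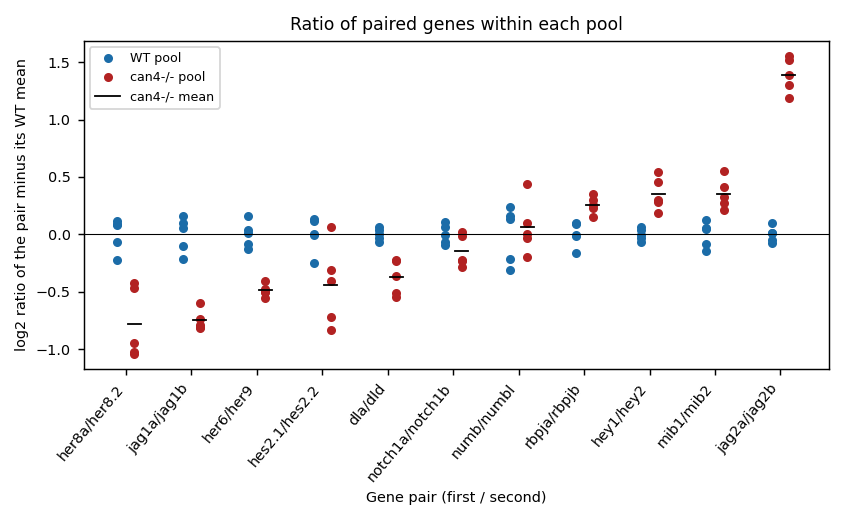
Log2 ratio of the normalized counts of paired genes in each pool, minus the WT mean of the ratio (y axis), for WT (blue) and can4-/- (red) pools, with a black line at the mutant mean. The mutant pools of jag2a/jag2b differ from WT by 1.39 on average and those of her8a/her8.2 by -0.78, and for numb/numbl the genotypes overlap.

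Mutant pool 2, the one with the most top2a RNA, was the mutant pool nearest to WT in 26 of the 38 Notch pathway genes that were called (68.4%), against 36.6% of all genes called. Among the 33 lower genes it was the highest mutant pool in 23 and the lowest in 0 of 33, while mutant pool 1 was the lowest in 16 and mutant pool 5 in 13. How the mutant pools rank over all lowered genes was not examined, so these ranks are not a trait of Notch pathway genes. The part of the higher top2a RNA of mutant pool 2 in this pattern was not tested. Each of the 33 decreases passed also without mutant pool 2.

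Genes that act with Notch but fall outside the naming rule changed about as often as all genes. Of 44 such genes tested, 17 had higher and 18 had lower counts in mutants (36.3% and 36.9% of all genes) and 9 gave no call, with a median log2 fold change of -0.0085. The proteases that mature or cut the receptor were mostly higher, with 9 of 10 higher and adam10b lower at -0.29. The sheddase gene adam10a, which makes the first cut at the membrane, rose by 0.72 ± 0.0461 (SE, adjusted p = 7.06e-09) on the log2 scale and the furin gene furina by 0.69 ± 0.0552 (SE, adjusted p = 6.80e-08), both from edgeR. Each overlaps other annotated genes, adam10a on both strands and furina on the opposite strand, with which it may share reads. The γ-secretase subunit genes psen2, psenen and aph1b had log2 fold changes of 0.58, 0.21 and 0.37. With library totals 6 of the 10 proteases were higher and 1 lower, where 25.7% of all genes were then higher and 47.7% lower. The corepressors and cofactors through which Rbpj and the her proteins work were mostly lower, with 7 of 10 lower (8 with library totals). The Groucho-type gene tle2b stood at -1.17 ± 0.0882 (SE, adjusted p = 3.67e-08) from edgeR. The largest decrease outside the rule was that of cntn1b, an axonal adhesion gene that can bind Notch in mammals, at -1.35 ± 0.0604 (SE, adjusted p = 2.66e-10) from edgeR. With TMM scaling the feedback inhibitor genes nrarpa and nrarpb, which Notch itself induces, had opposite signs. Their log2 fold changes were 0.24 ± 0.0441 (SE) for nrarpa and -0.73 ± 0.067 (SE) for nrarpb. Library totals shift all values by a median of -0.17, so the small rise of nrarpa depends on the scaling. Its value with library totals is not reported here. These groups within the list were formed after its values had been seen.

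Markers of the cells that use Notch were read in the same pools, where 36.3% of all genes were higher and 36.9% lower. These lists too were chosen with earlier results of these data known. Neural progenitor markers were 1 higher and 11 lower of 12 tested (median log2 fold change -0.67, summed normalized counts 60020.5 to 65050.3 in WT and 37218 to 40582 in mutants). The largest parts of that sum came from hmgb2a (means of 20793 in WT and 11245 in mutants) and fabp7a (18159 and 10880). The sum therefore mostly follows these genes. A mixed list of proneural and neural differentiation genes was 1 higher and 11 lower of 12 tested (median log2 fold change -1.92, summed normalized counts 12222 to 13630.5 in WT and 1946 to 3662 in mutants). In it the differentiation genes neurod1, neurod4 and neurod6b were at -3.19, -2.82 and -2.51. The proneural genes ascl1a, neurog1, atoh1a and atoh7 were at -1.23, -1.17, -1.07 and -2.34. The list has 12 genes because the symbol ascl1b belongs to 2 annotated genes. Of these, 1 was higher, at 2.14, with mean normalized counts of 72.4 in WT and 320.1 in mutants. The other was lower, at -2.10, with means of 427.6 in WT and 99.4 in mutants. Neuron markers were 0 higher and 12 lower of 12 tested (median log2 fold change -1.09, summed normalized counts 69679.7 to 74384 in WT and 33304 to 38688 in mutants), and proliferation markers were 0 higher and 13 lower of 13 tested (median log2 fold change -0.61, summed normalized counts 46385 to 50672 in WT and 30605 to 37046 in mutants). Of the hair cell markers, 0 were higher and 5 lower of 7 tested, at a median of -0.89 and summed counts of 6283 to 6676 in WT and 3511 to 3766 in mutants. Endothelial markers, close to the shares of all genes, were 5 higher and 4 lower of 12 tested, at a median of 0.035 and summed counts of 9021 to 9712 in WT and 10009 to 10925 in mutants. Presomitic and somite markers were 2 higher and 1 lower of 6 tested (median 0.59, summed counts 878 to 1049 in WT and 1299 to 1396 in mutants). The summed counts followed meox1, a somite gene with a log2 fold change of 0.94 and mean counts of 479 in WT and 922 in mutants, while ripply1 fell and tbxta, the other gene that rose, is rare. The 5 muscle markers were all higher, at a median of 0.57 and summed counts of 256681 to 303602 in WT and 404772 to 479010.5 in mutants. No marker that had a row in the table was at 0 in all pools. The part of these cell types in the decrease of the Notch genes was not tested. The median of the her, hes and hey genes (-1.40) lay below those of the progenitor (-0.67), neuron (-1.09) and proliferation (-0.61) lists. It lay above that of the mixed proneural and differentiation list (-1.92). In that list ascl1a, neurog1 and atoh1a fell by less and 1 ascl1b gene rose, while all its other genes fell by more. This is given as a description of these lists.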

How the data were processed

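RNA of 10 pools of whole larvae (5 WT, 5 can4-/-) was sequenced after rRNA removal with a stranded total RNA kit. The authors aligned reads to GRCz11 with STAR (2.7.0f in the submitters' processing notes) and deposited raw counts per gene of Ensembl release 96, not normalized. The sources used here give neither the counting program nor its use of strand. The deposited gene coordinates were used for positions. The deposited normalized and rlog values and the authors' DESeq2 comparison (fold changes and p-values) were not used.

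Genes were kept by filterByExpr (minimum count 10, minimum total 15). edgeR 4.0.16 in R 4.3.3 gave TMM factors and quasi-likelihood tests with a single genotype term, with Benjamini-Hochberg adjustment across every tested gene. The standard error is the size of the log2 fold change over the square root of F. The fit was tested on simulated data. Pools of a genotype differed by a chi-square per degree of freedom of 4.79 to 27.2 in 20 pairs, more than counting noise, so that no 2 of them look like the same library. Each pool holds separate larvae, but the labels do not say that the pools come from separate crosses, and p-values measure the spread between these pools. Genes with few reads are the least precise, as their larger standard errors show.

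The pathway, its naming rule and the lists were chosen with earlier results of these data known. Values by pool are given for the receptors, the Delta and Jagged ligands averaging at least 100 normalized counts, and the 6 largest increases and 6 largest decreases of the other members that passed the test, kept that minimum and had pools apart (2 increases met it). Outside the members the rule names top2a and the 2 largest increases and decreases among other pathway genes. Values of her6, and of further genes named, were added to describe their groups. Of 55 names in that list 44 had a row that was tested. Some values are not reported here. The planned pair maml1 and maml2 was not analysed here. The alternatives were RLE size factors, library totals, DESeq2 1.42.0, limma voom (limma 3.58.1), no filter, a filter of 50 counts in all libraries of 1 genotype, the replicate number as a block, the her4 copies summed, and leaving out each pool. Counts of pathway subgroups with library totals were added after seeing the data.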

Additional observations from a re-analysis of the deposited data

Results flagged for a closer look

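The groups looked at were 94 sets of 5 pools (46 Notch pathway genes and top2a in each genotype). In 7 of them the gap of a pool to the next was more than 0.71 of the range of its group. For independent values with a normal spread about 5% of groups would do so. These groups come from the same 10 pools and are not independent, so that share is only a rough guide. In mutant pool 2, top2a stood at 1358 normalized counts (635 to 688 in the other mutant pools) and her3 at 9.64 (2.15 to 3.22 in the others). In WT pool 1, top2a stood at 9082 (8498 to 8646 in the other WT pools) and rbpjl at 38.0 (55.1 to 61.5). In mutant pool 3, numbl stood at 387 (287 to 310 in the other mutant pools) and mfng at 220.4 (206 to 209.6). In WT pool 3, rbpja stood at 1947 (1846 to 1872 in the other WT pools).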

How the results depend on the processing

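The 33 lower and 5 higher Notch pathway genes gave the same counts with RLE size factors, DESeq2, limma voom and no filter, and 29 and 5 with the stricter filter, where fewer genes were tested. With library totals 38 were lower and 3 higher, since all values shift by -0.17. With a pool left out 33 were lower each time and 5 to 6 higher. Of 46 genes 36 kept their direction and their side of the threshold under every alternative in which they were tested. The genes her3, her4.3, hes2.1 and rbpjl were not tested with the stricter filter. With library totals the direction turned for lfng (-0.17), maml1 (-0.10), rbpja (-0.17) and numbl (-0.0066). With a pool left out lfng ranged from -0.0043 to 0.024 and rbpja from -0.012 to 0.055. Among the pairs, numb over numbl ranged from -0.031 to 0.13 and hes2.1 over hes2.2 from -0.57 to -0.34 with a pool left out, and the latter passed only without mutant pool 4. The replicate number as a block gave 33 lower and 5 higher, with 16523 genes called in place of 16861 of all genes. No pairing of same-numbered pools was seen in the counts. The correlations of their deviations were -0.022 to 0.033, and 0 of 5 WT pools correlated best with the mutant pool of its number. The labels do not say whether such pools shared a cross or a handling step, and these correlations cannot settle it. Rare transcripts such as her5, her7 and her11 could not be compared at this depth.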
